A study of Mus musculus with 6 samples.

Results

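The 8 genes described here carry pyruvate into mitochondria, interconvert it with lactate, or move both across the cell membrane. They are the pyruvate carrier subunits Mpc1 and Mpc2, the lactate dehydrogenases Ldha and Ldhb, the monocarboxylate transporters Slc16a1, Slc16a3 and Slc16a7, and Bsg, whose product basigin escorts transporters to the membrane. They were taken by gene symbol from tables of 24848 genes, and all 8 were found and were among the 15848 genes expressed highly enough to be tested. Messenger RNA was sequenced from brains of mouse embryos at stage E14.5, from 3 embryos labelled E4f1 knockout (KO) and 3 labelled wild type (WT). E4F1, the product of the deleted gene, is a transcription factor, and the series asks how it ties pyruvate metabolism to the Elongator complex during brain development. The labels give tissue, stage, genotype and replicate number but no strain, allele, Cre driver or litter, so whether every cell of a KO brain carries the deletion is not known here.

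Pyruvate made by glycolysis in the cytosol crosses the inner mitochondrial membrane through a carrier in which the MPC1 and MPC2 proteins work together, and inside it feeds the pyruvate dehydrogenase complex or pyruvate carboxylase. Pyruvate that stays in the cytosol can be reduced to lactate by lactate dehydrogenase, a tetramer of LDHA and LDHB subunits, which regenerates the NAD+ that glycolysis needs. LDHA-rich tetramers are known for favouring lactate formation and LDHB-rich ones for favouring lactate use. Lactate and pyruvate leave or enter cells together with a proton through the transporters MCT1 (Slc16a1), MCT2 (Slc16a7) and MCT4 (Slc16a3), of which MCT2 is the neuronal form of the adult brain and MCT1 is abundant in brain endothelium. Basigin is the partner of MCT1 and MCT4 at the membrane. Mpc1 has been reported in the literature as a gene that E4F1 controls.

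No promoter assay was part of these data, and the sequences serve as context for the 3 genes whose KO and WT levels did not overlap, Mpc1, Ldha and Slc16a1, and for the carrier partner Mpc2. The 250 bases before a RefSeq start on GRCm38.p6 are shown for Mpc1 (chr17:8283537-8283786, plus strand), its partner Mpc2 (chr1:165461010-165461259, plus strand), Ldha (chr7:46845554-46845803, plus strand) and Slc16a1 (chr3:104638414-104638663, plus strand). Capitals mark 3 motifs searched on both strands: TGACGT, the core shared by E4F, ATF and CREB sites; ACGTG, the core of hypoxia response elements; and CCAAT, the CCAAT box.
Mpc1: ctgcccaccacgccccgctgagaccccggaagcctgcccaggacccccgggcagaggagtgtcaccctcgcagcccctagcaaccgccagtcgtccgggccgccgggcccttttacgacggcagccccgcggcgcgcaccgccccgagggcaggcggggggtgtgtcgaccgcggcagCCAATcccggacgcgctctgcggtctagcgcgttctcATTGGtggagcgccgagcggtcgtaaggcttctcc
Mpc2: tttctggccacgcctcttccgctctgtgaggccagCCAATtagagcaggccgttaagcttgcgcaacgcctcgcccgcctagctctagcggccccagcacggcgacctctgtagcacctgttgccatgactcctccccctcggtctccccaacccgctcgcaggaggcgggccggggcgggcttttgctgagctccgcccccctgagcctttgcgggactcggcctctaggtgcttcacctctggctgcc
Ldha: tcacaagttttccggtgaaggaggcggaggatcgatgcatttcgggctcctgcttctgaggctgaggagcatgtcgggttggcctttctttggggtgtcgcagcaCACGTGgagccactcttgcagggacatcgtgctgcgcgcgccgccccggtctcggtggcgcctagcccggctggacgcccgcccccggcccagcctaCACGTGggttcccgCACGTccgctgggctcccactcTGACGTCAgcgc
Slc16a1: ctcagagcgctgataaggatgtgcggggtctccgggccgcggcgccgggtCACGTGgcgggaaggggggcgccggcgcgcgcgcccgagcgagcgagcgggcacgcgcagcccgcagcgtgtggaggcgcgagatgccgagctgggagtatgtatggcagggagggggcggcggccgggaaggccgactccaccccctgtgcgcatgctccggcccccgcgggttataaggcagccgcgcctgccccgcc
The RefSeq promoter table used here held 6 of the 8 genes, all but Bsg and Slc16a7, and Mpc1 and Ldha had 2 windows each. TGACGT was found in the Ldha window shown, where it stands on both strands as the palindrome TGACGTCA from 12 to 5 bases before the start, and in the window of Slc16a3, from 29 to 24 bases before the start. It was in neither window of Mpc1, nor in those of Mpc2, Ldhb and Slc16a1. Of all 32851 windows in the table, 6.47% held TGACGT and 1.55% held TGACGTCA. In the Ldha window shown, ACGTG had 5 matches over both strands, 4 of them from CACGTG, which reads the same on both strands. In the Slc16a1 window it had 2 matches, both from a single CACGTG. The Slc16a3 window also had 2 matches, from 27 to 23 and from 14 to 10 bases before the start. The windows of Mpc1, Mpc2 and Ldhb and the Ldha window not shown had 0. Of all windows, 16.6% held ACGTG, of which CACGTG is a part, and CACGTG alone was in 6.02%. The CCAAT box stood at 72 to 68 bases before the start of Mpc1 and, on the opposite strand, at 35 to 31 bases, and once each in the windows of Mpc2 and Ldhb, against 33.8% of all windows with at least 1 match. The G and C content was 73.6% in the Mpc1 window shown and 67.2% in that of Mpc2, against a median of 52.4% over all windows, and the shares were not matched for it. These matches are letters in a window and say nothing of what binds there.

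Libraries held between 42113465 and 74064707 expected counts, and levels below are CPM, counts relative to library size after TMM scaling, or TPM where genes are compared with each other. E4f1 itself had 7.12, 7.01 and 6.92 CPM in KO 1 to KO 3, against 20.7, 21.6 and 21.5 CPM in WT 1 to WT 3, and fell in KO (log2 fold change -1.60 ± 0.08, edgeR adjusted p = 0.00142). Markers of neurons and of radial glia were present in every library. The summed level of 7 neuron markers was between 5034 and 5843 CPM in KO brains and between 6634 and 7677 CPM in WT brains, and the groups did not overlap. Of these 7 markers edgeR called 0, 5 had an unadjusted p below 0.05 with lower values in KO, and DESeq2 called 4. The sum rests mostly on the abundant Dcx, Map2 and Tubb3. Rbfox3 (-0.003 ± 0.12) and Snap25 (0.20 ± 0.16) overlapped between groups. The midbrain markers En1, En2 and Pax5 summed to between 0.27 and 1.61 CPM in KO brains, against 69.9, 33.9 and 3.07 CPM in WT 1, WT 2 and WT 3. The brains thus differed in the level of these markers, also within WT. Whether they differed in the amount of midbrain was not tested. In whole tissue, fewer cells of a type and less RNA per cell cannot be told apart.

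In E4f1 KO brains none of the 8 genes passed the edgeR quasi-likelihood test at an adjusted p below 0.05. Of all 15848 tested genes, 81 (0.511%) were called higher and 78 (0.492%) lower in KO, or 123 and 63 with scaling to library totals. Of the 8 genes, 3 had an unadjusted p below 0.05, against 19.6% of all tested genes: Mpc1 and Ldha, whose fold changes were negative, and Slc16a1, whose fold change was positive. The same 3 genes were the ones whose KO and WT levels did not overlap, while 27.6% of all tested genes had no such overlap (14.6% with KO above and 13.0% with KO below). DESeq2 called Mpc1 lower, as it did 4.79% of the genes it tested, and Slc16a1 higher, as it did 5.44%. On log2(TPM + 1), limma called Mpc1 lower, against 0.852% of genes lower and 0.873% higher, but not without the filter on low TPM (adjusted p = 0.0503), and limma-voom did not call it (0.0662). The median log2 fold change of the 8 genes was -0.12, and the median absolute value was 0.18 for them and 0.18 for all tested genes.

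**Figure D1:**
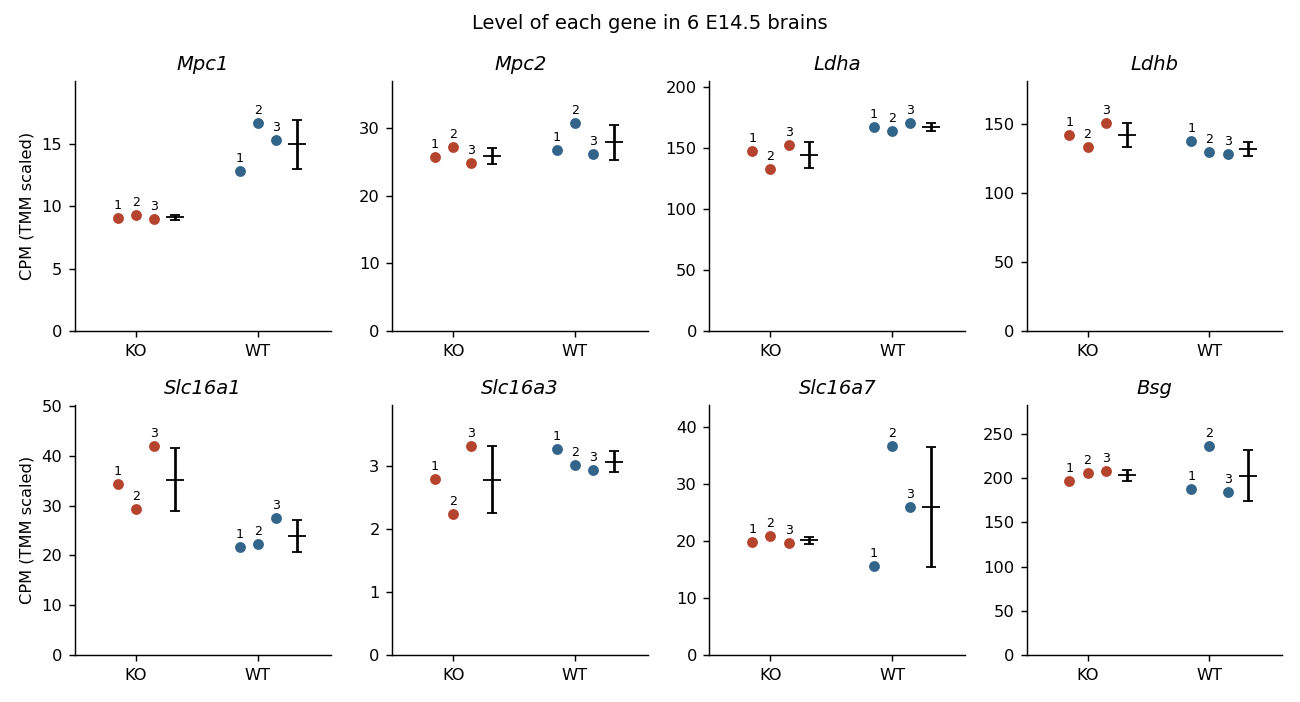
Levels of the 8 genes in CPM after TMM scaling in each brain, KO on the left and WT on the right, with the replicate number above each point and the mean with SD beside the points. The 3 KO brains lie below all WT brains for Mpc1 and Ldha and above them for Slc16a1, and the groups overlap for the other 5 genes.

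Mpc1 (chromosome 17, 8283787 to 8297667, GRCm38), the carrier subunit reported as an E4F1 target, had 9.04, 9.28 and 8.95 CPM in KO 1 to KO 3, against 12.8, 16.7 and 15.3 CPM in WT 1 to WT 3. The KO brains lay close together and all below the lowest WT brain, while the WT brains spread more widely. The counts behind these levels were 646, 530 and 457 in the KO libraries and 956, 685 and 1016 in the WT libraries. The log2 fold change was -0.71 ± 0.12 (SE, n = 3 per group), which is 0.610 of the WT level, with a 95% interval of -1.01 to -0.42. The edgeR adjusted p was 0.0611 and the unadjusted p was 8.76e-04, so the gene missed the threshold. DESeq2 gave an adjusted p of 2.36e-05 with a log2 fold change of -0.71. Leaving out 1 library at a time gave edgeR log2 fold changes between -0.81 and -0.63 and adjusted p-values between 0.0618 and 0.306, and none of these fits called Mpc1. In an edgeR fit with a midbrain score (the mean log2 level of the 3 midbrain markers) as a further term it had -0.82 ± 0.25 (adjusted p = 0.989). The score was -3.39, -1.47 and -2.19 in KO 1 to KO 3, against 4.12, 3.18 and -0.24 in WT 1 to WT 3. It thus went with genotype, and the fit cannot cleanly separate the score from genotype. An annotated transcript on the opposite strand, 4930506C21Rik, shares 480 exonic bases with Mpc1 in GENCODE. It held between 1 and 6 expected counts in every library, and the strand setting of the counting is not given in the sources used here. The annotation also holds a processed pseudogene, Mpc1-ps, on chromosome 12.

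Mpc2 (chromosome 1, 165461260 to 165481218), the obligate partner of MPC1 in the carrier, had 25.7, 27.1 and 24.7 CPM in KO 1 to KO 3, against 26.7, 30.7 and 26.1 CPM in WT 1 to WT 3. The groups overlapped, and WT 2 was the highest of the 6. The log2 fold change was -0.11 ± 0.09 with a 95% interval of -0.33 to 0.11 (edgeR adjusted p = 0.538). It was -0.031 without WT 2 and -0.042 with libraries scaled to their totals. Its sign turned once the midbrain score entered the fit (0.017).

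Per transcript length, the Mpc1 to Mpc2 ratio of TPM was 0.325, 0.316 and 0.334 in KO 1 to KO 3, against 0.444, 0.501 and 0.541 in WT 1 to WT 3. Mpc1 was thus the less abundant subunit in every brain, and its ratio to Mpc2 was lower in 3 of 3 KO brains than in any WT brain. The mean log2 ratio differed by -0.60 between KO and WT (-1.62 ± 0.04 in KO and -1.02 ± 0.14 in WT, SD, n = 3 each). An exact two-sided permutation test over the brains gave p = 0.1, the smallest p that 3 against 3 allows, and 0.18 after Benjamini and Hochberg adjustment over the 9 ratios and sums tested this way. The summed level of both subunits was 134, 140 and 127 TPM in the KO brains and 153, 182 and 159 TPM in the WT brains (exact permutation p = 0.1).

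**Figure D2:**
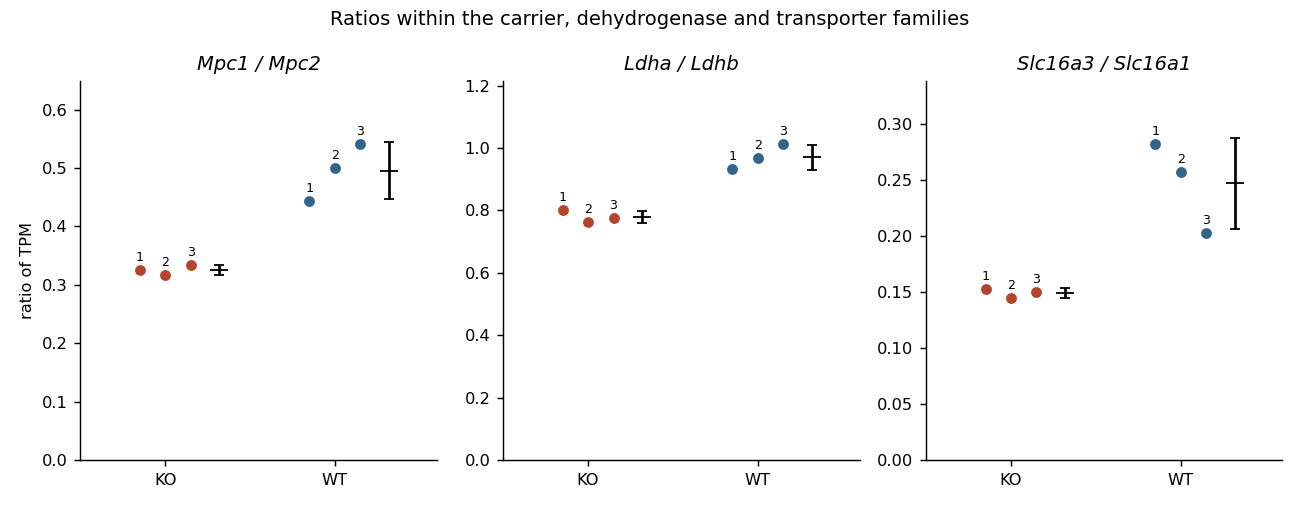
Ratios of TPM of Mpc1 to Mpc2, Ldha to Ldhb and Slc16a3 to Slc16a1 in each brain, KO on the left and WT on the right, with replicate numbers above the points and the mean with SD beside them. In each of the 3 ratios the KO brains lie below all WT brains, and the KO points lie closer together than the WT points. Of the 3 other ratios computed, not drawn, Slc16a1 to Slc16a7 and Slc16a1 to Bsg overlap between groups and Ldha to Mpc1 is higher in KO.

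Ldha (chromosome 7, 46842274 to 46855627), the dehydrogenase subunit prominent in lactate-forming tissue, had 148, 133 and 153 CPM in KO 1 to KO 3, against 166.9, 164.02 and 170.5 CPM in WT 1 to WT 3. All KO brains were below all WT brains, with KO 2 the lowest. This was a log2 fold change of -0.21 ± 0.07, with a 95% interval of -0.38 to -0.04 and an edgeR adjusted p of 0.188 (unadjusted p = 0.0221). Leaving out 1 library at a time kept the sign, with values between -0.26 and -0.15. The annotation holds the processed pseudogenes Ldha-ps and Ldha-ps2. Expected counts of Ldha were whole numbers in all 6 libraries, so no fractional split of its reads with another counted gene is visible. Whether reads of these pseudogenes were counted for Ldha was not tested.

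Ldhb (chromosome 6, 142490249 to 142507957), the subunit prominent in lactate-using tissue, had 142, 133 and 151 CPM in KO 1 to KO 3, against 138, 130 and 129 CPM in WT 1 to WT 3. The ranges overlapped because KO 2 was below WT 1. Its log2 fold change was 0.11 ± 0.07, with a 95% interval of -0.06 to 0.27 and an edgeR adjusted p of 0.430. It was 0.057 without KO 3 and 0.17 with scaling to library totals.

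The Ldha to Ldhb ratio of TPM was 0.801, 0.764 and 0.775 in KO 1 to KO 3, against 0.931, 0.968 and 1.01 in WT 1 to WT 3. Ldha made up 44.5%, 43.3% and 43.6% of the summed Ldha and Ldhb TPM in the KO brains and 48.2%, 49.2% and 50.3% in the WT brains. The subunits were therefore near parity in WT brains, and Ldhb was the more abundant in every KO brain. The mean log2 ratio differed by -0.31 (-0.36 ± 0.03 in KO and -0.04 ± 0.06 in WT, SD, n = 3 each), a difference several times the SD within either group, and the exact permutation test gave p = 0.1 (adjusted 0.18). The summed level of both genes was 580.28 ± 34.6 TPM in KO brains and 608.15 ± 11.4 TPM in WT brains, with overlapping ranges and an exact permutation p of 0.3. The ratio of Ldha to Mpc1, added after the data were seen, was between 6.96 and 8.31 in KO brains and between 4.83 and 6.37 in WT brains (exact permutation p = 0.1, adjusted 0.18).

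Slc16a1 (chromosome 3, 104638664 to 104658462), the gene of MCT1, had 34.4, 29.3 and 41.9 CPM in KO 1 to KO 3, against 21.8, 22.3 and 27.5 CPM in WT 1 to WT 3. All KO brains were above all WT brains, the nearest being KO 2 and WT 3. The log2 fold change was 0.56 ± 0.16, which is 1.48-fold, with a 95% interval of 0.18 to 0.95. The edgeR adjusted p was 0.148 (unadjusted p = 0.0115) and the DESeq2 adjusted p was 0.0285. Leaving out 1 library at a time gave between 0.41 and 0.68. The value was 0.19 ± 0.28 in an edgeR fit that carried the midbrain score. That score was lower in every KO brain than in any WT brain, so the fit cannot cleanly separate it from genotype. The 8 endothelial markers, whose cell type is known for MCT1, all had positive fold changes and summed to between 313 and 425 CPM in KO brains and between 243 and 289 CPM in WT brains. None of them was called by edgeR, 6 had an unadjusted p below 0.05, DESeq2 called 4, and their part in the Slc16a1 value was not tested.

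Slc16a3 (chromosome 11, 120948484 to 120959000), the gene of MCT4, was the least abundant of the 8 per length and stood at 2.80, 2.24 and 3.31 CPM in KO 1 to KO 3, against 3.26, 3.02 and 2.93 CPM in WT 1 to WT 3. The groups overlapped, with KO 3 the highest and KO 2 the lowest of all. Its counts ranged only from 124 to 243, and the log2 fold change of -0.14 ± 0.20 had a 95% interval of -0.62 to 0.33 (edgeR adjusted p = 0.713). It was -0.0090 without KO 2 and -0.29 without KO 3. Its ratio to Slc16a1 in TPM, added after the data were seen, was 0.153, 0.144 and 0.150 in the KO brains and 0.282, 0.257 and 0.202 in the WT brains (exact permutation p = 0.1, adjusted 0.18).

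Slc16a7 (chromosome 10, 125219270 to 125389586), the gene of MCT2, had 19.8, 20.9 and 19.7 CPM in KO 1 to KO 3, against 15.6, 36.7 and 26.02 CPM in WT 1 to WT 3. The KO brains lay together inside the wide WT range, in which the highest TPM was 2.37 times the lowest. The log2 fold change was -0.37 ± 0.29 with a 95% interval of -1.07 to 0.33 (edgeR adjusted p = 0.506). Single WT brains set this value, since it was -0.64 without WT 1 and -0.05 without WT 2. In GENCODE it shares 179 exonic bases with Gm47862 on the opposite strand.

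Bsg (chromosome 10, 79704358 to 79711979), the transporter chaperone basigin, was the most abundant of the 8 per length and had 197, 206 and 208 CPM in KO 1 to KO 3, against 188, 236 and 185 CPM in WT 1 to WT 3. WT 2 stood above the other 5 brains and the KO brains lay between the WT values. The log2 fold change was 0.00 ± 0.11 with a 95% interval of -0.25 to 0.26 (edgeR adjusted p = 0.985). Its sign differed between settings.

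The 3 transporters together had 28.5, 24.9 and 32.5 TPM in KO 1 to KO 3, against 20.5, 25.9 and 26.1 TPM in WT 1 to WT 3, and the groups overlapped (exact permutation p = 0.3). Slc16a1 made up 72.0 ± 2.5% of this sum in KO brains and 59.3 ± 6.6% in WT brains, Slc16a3 10.7 ± 0.6% in KO and 14.6 ± 2.8% in WT, and Slc16a7 17.3 ± 3.0% in KO and 26.04 ± 8.3% in WT (SD, n = 3 each). The ratio of Slc16a1 to Slc16a7 was between 3.40 and 5.16 in KO brains and between 1.48 and 3.40 in WT brains, and that of Slc16a1 to Bsg was between 0.0399 and 0.0565 in KO brains and between 0.0267 and 0.0419 in WT brains (exact permutation p = 0.2 and adjusted 0.257 for each).

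**Figure D3:**
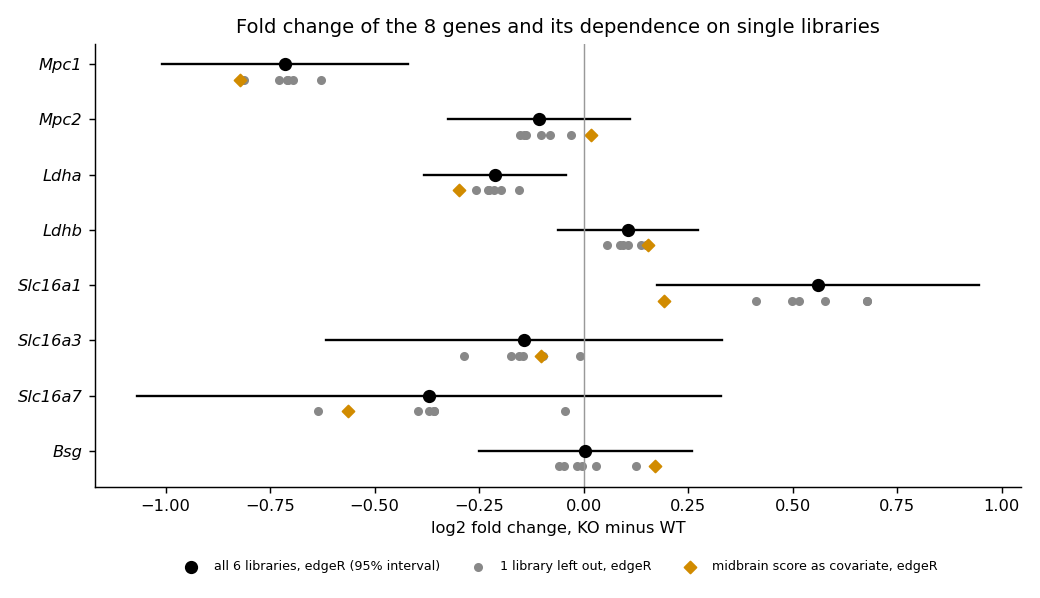
Log2 fold change of KO minus WT for the 8 genes. Black points and bars give the edgeR value and 95% interval from all 6 libraries, grey points the values with 1 library left out, and orange diamonds the value with the midbrain score in the fit. The intervals of Mpc1, Ldha and Slc16a1 do not include 0, and the Slc16a1 diamond lies at 0.19. The midbrain score is lower in every KO brain than in any WT brain, so the diamonds cannot cleanly separate it from genotype.

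Per transcript length the order of the 8 genes by mean TPM was the same in KO and in WT brains: Bsg, Ldhb, Ldha, Mpc2, Mpc1, Slc16a1, Slc16a7 and Slc16a3. Bsg averaged 425 ± 10 TPM in KO brains and 431 ± 61 TPM in WT brains, and Slc16a3 3.08 ± 0.57 TPM in KO brains and 3.47 ± 0.18 TPM in WT brains. In KO brains no neighbours in this order overlapped. In WT brains Ldhb (309 ± 11 TPM) and Ldha (299 ± 5 TPM) overlapped and no other neighbours did. Mpc1 and Slc16a1 lay closer to each other in KO brains, at 32.8 ± 0.9 and 20.7 ± 3.5 TPM, than in WT brains, at 54.5 ± 7.0 and 14.3 ± 1.8 TPM. The mean transcript length that RSEM weights by isoform abundance varied little: for Ldhb it was between 1292 and 1301 bases over the 6 libraries and for Slc16a3 between 2440 and 2464 bases, while for Mpc1, Mpc2 and Slc16a1 the deposited tables list a single transcript each.

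**Figure D4:**
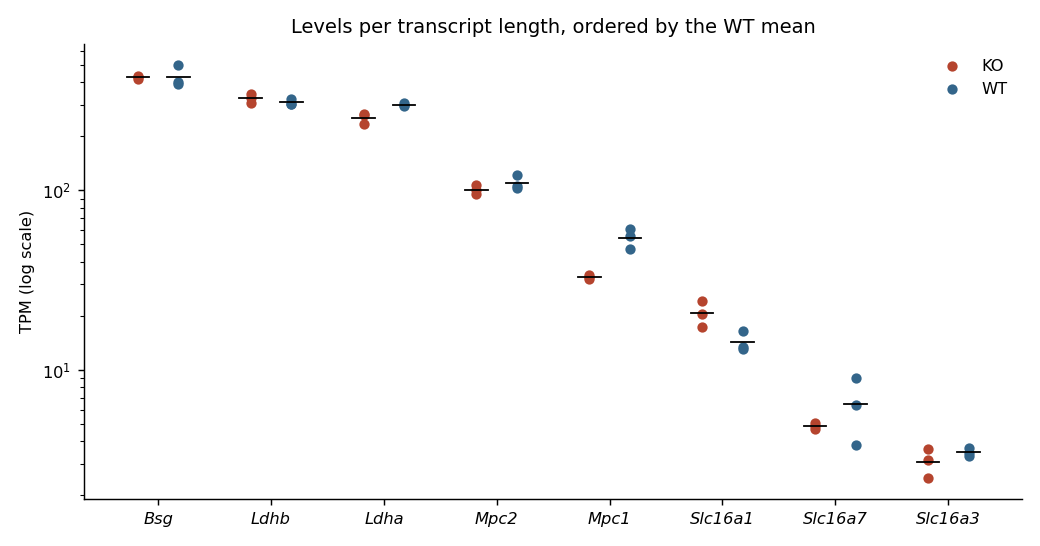
TPM of the 8 genes on a log axis, ordered by the WT mean, with KO brains left of WT brains for each gene and a bar at each mean. Levels run from 425 TPM for Bsg to 3.08 TPM for Slc16a3 in KO brains, and the KO and WT means keep the same order.

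The genes whose centred log2 CPM profile over the 6 libraries lay nearest to that of Mpc1, by root mean square difference, were Arrdc4 (0.03 log2 units), an arrestin-domain gene, Gp1bb (0.07), Tmem121b (0.07), Dleu7 (0.08) and Armc6 (0.08). Their log2 fold changes were -0.67, -0.75, -0.74, -0.60 and -0.66 in that order, a direction that the choice by likeness to Mpc1 sets. The nearest to Mpc2 were Gde1 and Atp5g1, an ATP synthase subunit gene, each at 0.02. For Ldha they were Cd24a (0.02) and Cox20, an assembly factor of cytochrome oxidase (0.03), and for Ldhb Cdk5rap3 (0.02) and Kctd15 (0.03). For Slc16a1 they were Itpripl1 (0.06) and Lrp5, a Wnt co-receptor (0.06), for Slc16a3 Il17ra (0.06) and Zswim7 (0.08), for Slc16a7 the potassium channel subunit gene Kcnab1 (0.04) and Ryr3 (0.07), and for Bsg Ctsf (0.03) and the carnitine transporter gene Slc22a5 (0.03).

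Among other carriers of the family and accessory glycoproteins, 12 of 15 listed genes were tested and edgeR called 0, with 1 higher and 1 lower at an unadjusted p below 0.05 and 1 of each called by DESeq2. The median log2 fold change was 0.11, with 7 positive and 5 negative values. Slc16a6 had 17.9 CPM in KO and 10.9 CPM in WT brains (0.72 ± 0.13, edgeR adjusted p = 0.0653), and it is named after its values were seen. The accessory glycoprotein genes Emb and Nptn had 0.20 ± 0.18 and -0.11 ± 0.13. Of 7 other genes of lactate metabolism and sensing, 6 were tested, 0 were called by edgeR or DESeq2, 0 had an unadjusted p below 0.05, and the median was 0.15.

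Among the enzymes on either side of the carrier, 3 genes were called. Of 7 tested genes that make pyruvate, Gpt2, the mitochondrial alanine transaminase that interconverts alanine and pyruvate, rose in KO, with 81.8, 78.0 and 84.0 CPM in KO 1 to KO 3, against 46.0, 45.0 and 46.2 CPM in WT 1 to WT 3 (0.83 ± 0.06, edgeR adjusted p = 0.00252). Gpt, the other alanine transaminase gene of the list, named after its values were seen, went the other way (-0.49 ± 0.14, edgeR adjusted p = 0.153). Pkm, the pyruvate kinase gene, had -0.09 ± 0.13 and the median of the list was -0.09. In this list 2 genes were higher and 1 lower, both at an unadjusted p below 0.05 and by DESeq2. Of 13 tested genes of mitochondrial pyruvate use, Dlat, which encodes the E2 subunit of pyruvate dehydrogenase, fell (-2.78 ± 0.14, adjusted p = 0.00142), as did Pdpr of its phosphatase (-0.80 ± 0.08, 0.0114), and the list median was -0.06, with 1 gene higher and 2 lower both at an unadjusted p below 0.05 and by DESeq2. Pdpr was not called without KO 1, KO 2, KO 3 or WT 3 (adjusted p between 0.0571 and 0.112, edgeR). No gene of the malate-aspartate and glycerol phosphate shuttles, which also reoxidise cytosolic NADH, was called among 10 tested by edgeR or DESeq2 (median -0.02, 1 gene with an unadjusted p below 0.05). Of 12 tested hypoxia-inducible genes, a class that Ldha and Slc16a3 are known to belong to, Vegfa rose (0.92 ± 0.12, edgeR adjusted p = 0.0350; without each library but KO 3 it was not called, with adjusted p between 0.0882 and 0.155), and the list had 7 positive and 5 negative values with a median of 0.10. At an unadjusted p below 0.05, 4 were higher and 1 lower in KO, and DESeq2 called 4 higher and 1 lower. Chosen after their values were seen, the higher ones beside Vegfa were Hk2, a hexokinase gene (0.94 ± 0.26, edgeR adjusted p = 0.144), Ddit4 (0.64 ± 0.10, 0.0529) and the glucose transporter gene Slc2a1 (0.44 ± 0.12, 0.142), and the lower one was Pfkfb3 (-0.62 ± 0.11, 0.0684). The summed level of the list was between 548 and 639 CPM in KO brains and between 443 and 508 CPM in WT brains, without overlap. This sum weighs abundant genes most, and Vegfa alone had 176, 150 and 127 CPM in KO 1 to KO 3, against 81.3, 82.2 and 76.3 CPM in WT 1 to WT 3. Of the 12 genes, 4 lay wholly above WT in KO and 3 wholly below, against 14.6% and 13.0% of all tested genes. The median of all tested genes was 0.00.

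**Figure D5:**
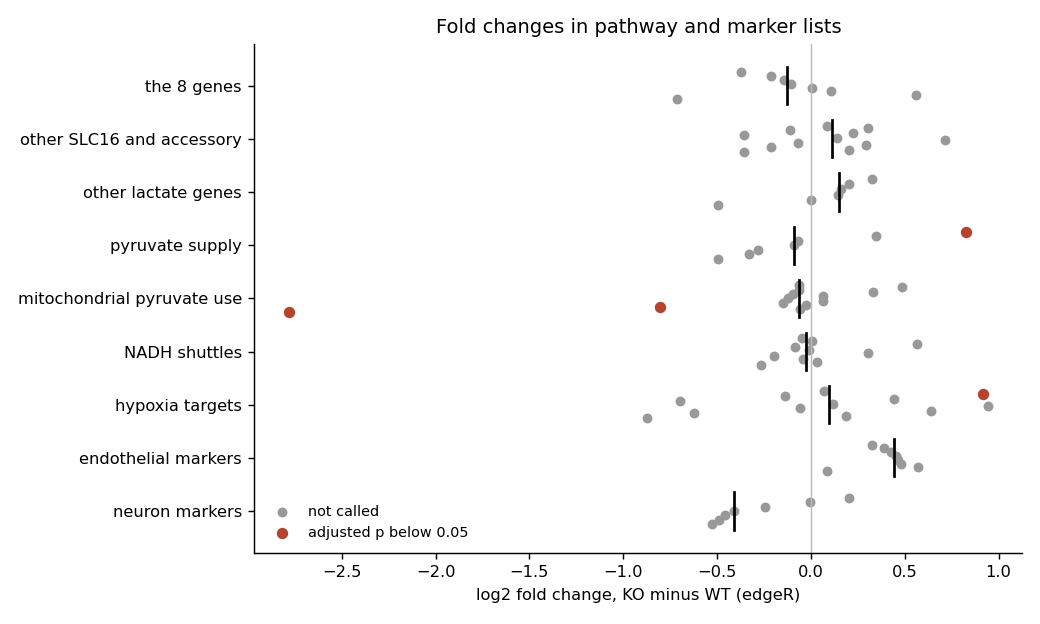
Log2 fold change of KO minus WT by edgeR for each tested gene of the 8 genes, 6 pathway lists and the endothelial and neuron markers (the other marker lists are not drawn), with a bar at the list median and red points for an adjusted p below 0.05. The called genes drawn are Gpt2, Dlat, Pdpr and Vegfa, and no gene of the transporter, lactate, shuttle, endothelial or neuron lists is called.

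Markers of other cells were compared in the same way. The 8 microglia and macrophage markers all had positive fold changes (median 0.89; edgeR called 2, Cx3cr1 and Fcrls, named here after their values were seen; 7 had an unadjusted p below 0.05 and DESeq2 called 6) and summed to between 106 and 141 CPM in KO brains and between 55.5 and 88.0 CPM in WT brains. The 10 erythroid markers, whose cells are rich in MCT1 and basigin, summed to between 703 and 1002 CPM in KO brains, against 894, 641 and 314 CPM in WT 1 to WT 3 (median 0.59, 0 called by edgeR, 2 with an unadjusted p below 0.05 and 2 called by DESeq2). Of these markers 7 had positive fold changes, and 3, the globin genes Hbb-y, Hbb-bh1 and Hba-x, negative ones. Hbb-y had 374 CPM in WT 1, 1.65 CPM in WT 2, 10.4 CPM in WT 3 and between 9.41 and 28.2 CPM in KO brains. Radial glia markers summed to between 1397 and 1594 CPM in KO brains and between 1286 and 1787 CPM in WT brains, choroid plexus markers to between 179 and 376 CPM and between 331 and 406 CPM, and meningeal and pericyte markers to between 457 and 4847 CPM and between 462 and 2488 CPM, for KO and WT brains in that order. Among these 3 lists edgeR called 0 genes, and 1 radial glia marker had an unadjusted p below 0.05 and was called by DESeq2, lower in KO. No marker of these lists was at 0 in any library. The part of these cell types in the values of the 8 genes was not tested.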

How the data were processed

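Messenger RNA was sequenced from 6 libraries made with a stranded KAPA kit, per the labels' protocols. The submitters' processing notes name GRCm38 (also as mm10), RSEM 1.2.28, STAR 2.5.3a, Trimmomatic and FastQC, without roles or settings. The authors deposited, per the file headers, expected counts, TPM (scaled to transcript length and library, keeping no depth) and mean transcript length (RSEM, an isoform-weighted value, in bases) per gene and library. FPKM was not used.

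Expected counts were rounded and tested with edgeR (version 4.0.16): filterByExpr, TMM, robust quasi-likelihood F test, two-sided, Benjamini and Hochberg adjustment over all tested genes, called below 0.05. The SE is the log2 fold change over the root of its F statistic. Ratios and sums of TPM were tested by exact permutation of brains. The test was checked on simulated counts. Alternatives were DESeq2 (version 1.42.0), limma (version 3.58.1) with voom or log2(TPM + 1 or 0.1), other scalings and filters, a replicate block, a midbrain score and left-out libraries. No pair of libraries of a group agreed within sampling noise (chi-square per degree of freedom between 45.1 and 175) and all 6 were kept as separate samples. The labels do not say whether brains of a group share a litter; p-values measure the spread between these brains.

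The 8 genes, the lists and the tests were chosen with earlier results of these data known. Named were the 8 genes, E4f1, up to 3 called genes per pathway list and the genes nearest in profile (5 for Mpc1, 2 for each other; mean of at least 1 CPM; no predicted genes, pseudogenes or sex-linked genes). Sequences came from RefSeq on GRCm38.p6 and exon overlaps from GENCODE M21.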

Additional observations from a re-analysis of the deposited data

How the results depend on the processing

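Among the 8 genes edgeR called 0 lower and 0 higher in KO under every scaling, filter, covariate and left-out library run. With the midbrain score, and in WT 1, WT 2, KO 1 and KO 2 alone, edgeR called 0 of all tested genes. The absence of calls in those fits therefore says nothing about the 8 genes. DESeq2 called 1 lower (Mpc1) and 1 higher (Slc16a1), and limma called 1 lower (Mpc1) on filtered TPM with either pseudocount, but 0 without the filter or with voom. Mpc1 had a log2 fold change of -0.71 (DESeq2, adjusted p = 2.36e-05), -0.71 (0.0347) and -0.72 (0.0356) in these fits, and between -0.82 and -0.63 over all 21 alternatives, with adjusted p-values from 2.36e-05 to 0.989; the cause was not tested. The replicate number shares no stated source. Correlations of deviations from the group mean, not of whole profiles, were 0.12, 0.17 and 0.02 for same-numbered brains. Those of the other KO and WT pairs lay between -0.24 and 0.12. With the replicate block Mpc1 had -0.71 (adjusted p = 0.0840), Slc16a1 0.56 (0.0783), and 24 higher and 42 lower genes were called in all, against 81 and 78. The SE of Slc16a1 was 0.08 with the block and 0.16 without it. For the Mpc1 to Mpc2 and Ldha to Ldhb log2 ratios a balanced block leaves the differences of -0.60 and -0.31 as they are by construction (exact sign-flip permutation p = 0.25, the smallest possible), which says nothing about stability. They ranged from -0.68 to -0.54 and from -0.34 to -0.28 without single libraries.

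Signs turned for values near 0. Bsg had -0.070 in WT 1, WT 2, KO 1 and KO 2 alone, -0.0090 in the 3 limma fits on TPM, and between -0.059 and 0.13 without single libraries. With the midbrain score Mpc2 had 0.017, Atp5g1 0.053, Il17ra 0.027 and Slc22a5 0.074. With library totals Il17ra had 0.040 and Slc22a5 0.042, with upper quartiles 0.0035 and 0.0017, and with limma-voom Slc22a5 had 0.0022. Ctsf had -0.038 in the 4 brains and -0.0047, -0.0046 and -0.0047 in limma on TPM. Without single libraries Il17ra lay between -0.17 and 0.094, Zswim7 between -0.25 and 0.018, Slc22a5 between -0.076 and 0.078, and Ctsf between -0.050 and 0.13. Over all genes, the 4 brains alone and the midbrain score left 0 calls by edgeR, DESeq2 made 811 higher and 714 lower calls, library totals 123 and 63, limma on log2(TPM + 1) 125 and 122, and left-out libraries 12 to 40 and 24 to 42. Library totals put the median log2 fold change of all genes at 0.06. Slc16a3 rests on 124 to 243 counts a library.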
